A study of Mus musculus with 4 samples.

Results

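The insulin-like growth factor (IGF) system was followed as 10 genes, the ligands Igf1 and Igf2, the receptor Igf1r, the binding proteins Igfbp2 to Igfbp7 and the protease Pappa, among 22911 genes with a probe in all. They were picked by name and found by matching the accession of each array probe to a gene symbol, which gave 13 probes: 2 each for Igf2, Igf1r and Igfbp4, and 1 for each of the other 7. The list was drawn up with the array ratios of these cells known, so every ratio over Control below is a description and none is tested. All 10 genes were well above background on all 4 arrays by their brighter probe.

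The cells were MC3T3-E1, a mouse osteoblastic line from calvaria, in 4 groups of 1 Agilent one-colour array each. Control cells had no inhibitor named; a vehicle is not given in the sources used here. The other groups received inhibitors of glucosylceramide synthase, which adds glucose to ceramide: Miglustat, an iminosugar, at 50 µM, D-PDMP at 10 µM or D-PPMP at 1.0 µM. D-PDMP and D-PPMP are ceramide-like morpholino compounds, and D-PPMP carries the longer acyl chain. Treatment lasted 4 days, after which the cells were plated again and harvested 24 h later. The doses differ, so the inhibitors' values stand side by side. Where the 4 levels of a gene are put in order, the order describes these arrays at these doses and does not rank the compounds.

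In this system IGF1 and IGF2 act through the IGF1 receptor, a tyrosine kinase that signals by way of insulin receptor substrates, PI3-kinase and AKT. The IGF2 receptor takes up and clears IGF2. Secreted binding proteins hold the ligands, prolong their life and keep them from or bring them to the receptor, and proteases such as PAPP-A release the ligand by cutting the binding protein. In bone, osteoblasts secrete both ligands and most binding proteins, and IGF action favours matrix formation.

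Igf2, Igfbp2 and Igfbp5 are the members that stood at least 2-fold from Control on any array, so the DNA just upstream of their starts is shown. Each line holds 250 bases before a RefSeq transcript start in build GRCm38.p6, read 5′ to 3′ on the gene's strand. RefSeq windows were found for 9 of the 10 members. Igf2 has 4 such windows, and which of its starts the array probes report was not examined. The 2 windows with a GC box are shown. Igfbp2 also has 2 windows, of which the upstream one is shown because it holds GC boxes. Capitals mark GC boxes (GGGCGG, the core bound by Sp1 and related factors), E boxes (CACGTG) and A/T-rich boxes (TATTTAA), on either strand.
Igfbp2, chr1:72824230-72824479, plus strand: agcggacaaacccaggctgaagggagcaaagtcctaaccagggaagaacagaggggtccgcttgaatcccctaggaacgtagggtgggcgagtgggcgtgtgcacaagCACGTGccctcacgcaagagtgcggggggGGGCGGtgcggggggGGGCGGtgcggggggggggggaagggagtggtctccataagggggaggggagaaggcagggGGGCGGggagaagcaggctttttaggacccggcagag
Igfbp5, chr1:72874866-72875115, minus strand: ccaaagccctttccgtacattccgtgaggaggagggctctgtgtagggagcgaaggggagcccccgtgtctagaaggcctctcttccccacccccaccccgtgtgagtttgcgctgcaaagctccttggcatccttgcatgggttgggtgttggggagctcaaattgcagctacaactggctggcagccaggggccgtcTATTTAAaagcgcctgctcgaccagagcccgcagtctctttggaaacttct
Igf2, chr7:142658805-142659054, minus strand: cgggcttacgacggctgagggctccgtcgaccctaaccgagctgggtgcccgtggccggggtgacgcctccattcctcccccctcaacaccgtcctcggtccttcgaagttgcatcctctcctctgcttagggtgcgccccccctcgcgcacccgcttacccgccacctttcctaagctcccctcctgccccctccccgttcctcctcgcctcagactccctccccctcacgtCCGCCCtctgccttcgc
Igf2, chr7:142657497-142657746, minus strand: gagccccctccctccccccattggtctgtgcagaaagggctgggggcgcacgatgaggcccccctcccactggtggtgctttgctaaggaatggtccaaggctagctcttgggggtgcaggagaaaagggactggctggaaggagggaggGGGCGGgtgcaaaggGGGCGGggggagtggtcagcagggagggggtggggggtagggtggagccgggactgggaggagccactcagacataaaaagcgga

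The shown windows differ in make-up. That of Igfbp2 was 67.2% GC and held 3 GC boxes and 1 E box. The Igfbp5 window was 58.8% GC, held no GC box and had 1 TATTTAA. The Igf2 windows were 68.8% and 66% GC, with 1 and 2 GC boxes, having been shown because they hold one. The other Igf2 windows, at 50.8% and 47.6% GC, and the other Igfbp2 window, at 56.4%, held none of the motifs searched. Over 32851 such windows of all genes the median was 52.4% GC, 32.7% held a GC box, 6.02% an E box and 4.18% the TATTTAA motif. Searches for a TATAAA box (12.4% of all windows), a forkhead site GTAAACA as bound by FOXO factors (3.17%) and an Egr site GCGTGGGCG (0.536%), on both strands, found none in these 4 windows. Among the other members, TATAAA was found once each in the windows of Igfbp4 and Igfbp6. GC boxes were also found in the windows of Igfbp7 (4) and Igf1r (2), and none in those of Igf1, Igfbp3, Igfbp4 and Igfbp6. No marked match overlaps another, and a match is a description of letters. The TATTTAA motif was added after the Igfbp5 window had been seen.

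Levels are log2 of the background-corrected signal minus the array's 75th percentile, so a level of 0 is a signal equal to that percentile. Ratios are differences of such levels from Control. Each member probe has 1 spot per array, and with 1 array per group the only error at hand is the one that the scanner software gives for the ratio, mostly 0.2 log2 units. It covers measurement and not the difference between cultures. The precision is limited by the number of arrays. The 3 ratios of a gene share its single Control spot.

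None of the 10 members was at least 2-fold higher than Control with any inhibitor. At least 2-fold lower were 0 under Miglustat, 2 with D-PDMP (Igf2 and Igfbp2) and 3 with D-PPMP (Igf2, Igfbp2 and Igfbp5). Over all genes well above background on both arrays, 0.176% of 14171 were 2-fold lower under Miglustat, 0.17% of 14154 under D-PDMP and 0.204% of 14200 under D-PPMP. The shares 2-fold higher were 0.212%, 0.155% and 0.303%. Since these contrasts chose the members, nothing is read from that difference. The median member lay at -0.06, -0.19 and -0.37 with Miglustat, D-PDMP and D-PPMP, beside -0.02, 0.00 and -0.01 over all those genes. Within 0.5 log2 units of Control were 7, 7 and 6 of the 10 members, beside 96.0%, 96.1% and 94.8% of all those genes. Nearest the 2-fold limit, Igfbp2 with D-PDMP lay just past it at -1.11 and was called, and Igfbp5 with Miglustat fell short of it at -0.90 and was not.

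**Figure D1:**
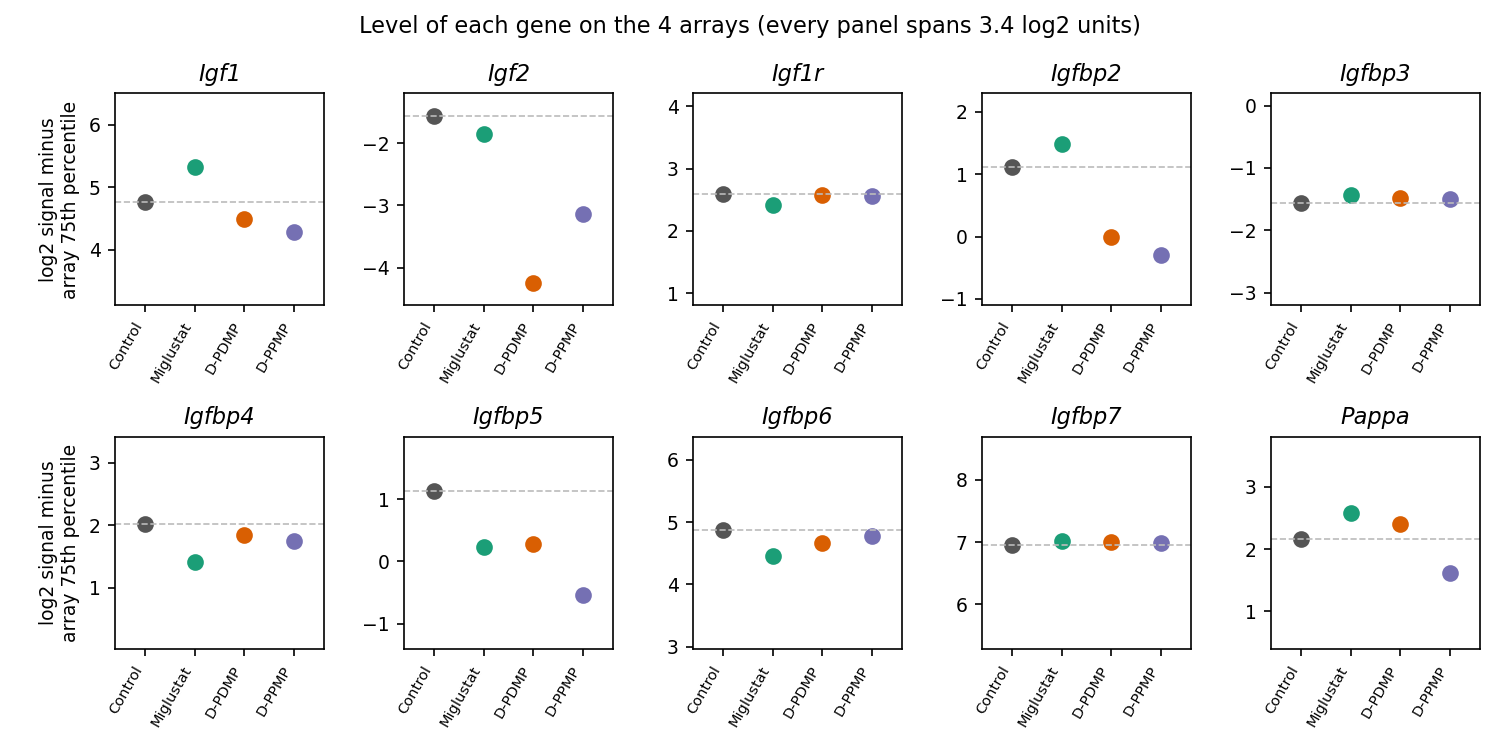
Level of each of the 10 genes on the 4 arrays, as log2 signal minus the array's 75th percentile, by the brighter probe; each panel spans an equal number of log2 units and the dashed line is the Control level. Igf2, Igfbp2 and Igfbp5 spread over 2.69, 1.77 and 1.67 log2 units, whereas Igfbp7 and Igfbp3 spread over 0.08 and 0.13.

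Among the ligands, Igf2, the fetal growth factor expressed from the paternal allele in most tissues, stood lowest against Control. Its level was -1.56 in Control, -1.86 under Miglustat, -4.25 under D-PDMP and -3.14 under D-PPMP. The order from highest to lowest was therefore Control, Miglustat, D-PPMP and D-PDMP, and each step exceeded the scanner software's error of that step. The log2 ratios over Control were -0.31 under Miglustat, -2.69 under D-PDMP and -1.58 under D-PPMP, the latter pair being 6.47-fold and 2.99-fold lower. With D-PDMP, Igf2 ranked 2 from the lowest of 14154 genes, and with D-PPMP 4 of 14200.

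Igf2 is a dim gene on these arrays. The median pixel of its spot was 84.5, 73.5, 31 and 43 scanner units on Control, Miglustat, D-PDMP and D-PPMP, over a local background of 16 on each. The other Igf2 probe was dimmer still, at levels of -4.20, -4.38, -6.26 and -6.11, and was not well above background with D-PDMP or D-PPMP. By that probe Igf2 was nominally at least 2.21-fold lower with D-PDMP and 2.2-fold lower with D-PPMP. This bound takes the lowest signal well above background on the dim array, a limit that need not hold for each spot. The ratio of that probe with Miglustat was -0.18. Its spot medians were 29, 29.5, 23 and 23 over local backgrounds of 17, 17, 17 and 16, in the same order of arrays. The errors of its D-PDMP and D-PPMP ratios were 0.61 and 0.56 log2 units. Both probes placed Igf2 below Control on the D-PDMP and D-PPMP arrays, and the 2-fold calls rest on the brighter probe. With normexp background correction, which adds an offset of 50 and so compresses dim spots, the brighter probe lay at -0.93 and -0.65, short of the 2-fold limit.

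Igf1, the ligand that carries much of growth hormone's action, was bright and moved less. Its level was 4.76 in Control, 5.33 under Miglustat, 4.49 under D-PDMP and 4.28 under D-PPMP. Miglustat stood above Control by 0.57, which is 1.49-fold and rank 230 from the highest of 14171 genes. D-PDMP and D-PPMP stood below Control by ratios of -0.26 and -0.47. Each step in the order of its 4 levels was larger than the scanner software's error of 0.2, if by little between D-PDMP and D-PPMP. No array had the insulin genes Ins1 or Ins2 well above background.

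**Figure D2:**
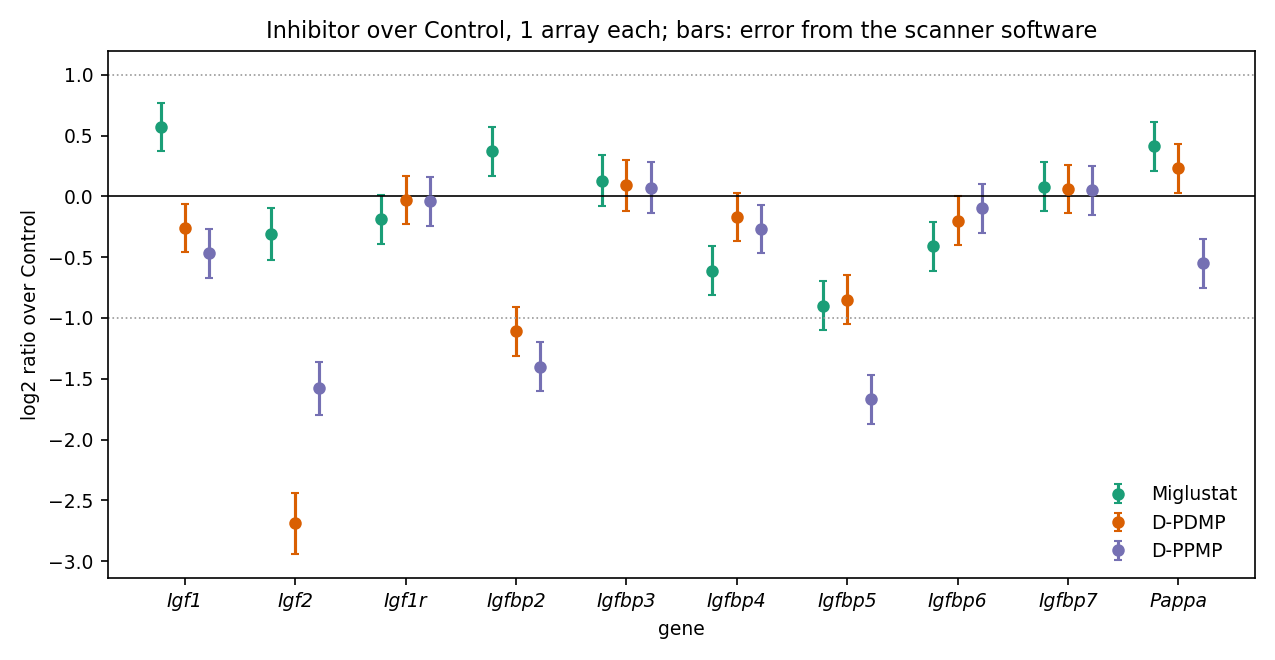
Log2 ratio of each inhibitor array over the Control array for the 10 genes; bars are the error of the ratio from the scanner software and dotted lines mark 2-fold. Igf2 with D-PDMP (-2.69) and with D-PPMP (-1.58), Igfbp2 with both (-1.11 and -1.40) and Igfbp5 with D-PPMP (-1.67) lie beyond the lower line, and no point lies beyond the upper one.

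The receptors differed little between arrays. Igf1r, which transmits both ligands' signal, was at a level of 2.60 in Control, 2.41 under Miglustat, 2.57 under D-PDMP and 2.56 under D-PPMP. No step between neighbouring levels exceeded the error. The other Igf1r probe gave ratios of 0.12, 0.02 and 0.02, so the sign with Miglustat (-0.19 on the brighter probe) differed between probes. Igf2r, the clearance receptor of IGF2, lay at -0.04, 0.08 and -0.04 with Miglustat, D-PDMP and D-PPMP. Insr, the insulin receptor, lay at -0.09, -0.08 and 0.30, with its other probe at 0.07, 0.05 and 0.14. The orphan receptor Insrr lay at 0.24, -0.21 and 0.26.

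Of the binding proteins, Igfbp5 stood below Control on all 3 inhibitor arrays. IGFBP-5 is abundant in bone, where it binds matrix and hydroxyapatite. Its level was 1.13 in Control, 0.23 under Miglustat, 0.28 under D-PDMP and -0.54 under D-PPMP. The Miglustat and D-PDMP levels differed by 0.05, less than the error of 0.2, while D-PPMP lay a further 0.77 below Miglustat. Against Control the ratios were -0.90, -0.85 and -1.67, or 1.86-fold, 1.8-fold and 3.18-fold lower. These were ranks 34 of 14171, 49 of 14154 and 3 of 14200 from the lowest. The call with D-PPMP held in each alternative tried, the ratio lying between -1.69 and -1.41.

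Igfbp2, which encodes a binding protein with a preference for IGF2, had another profile. Its level was 1.11 in Control, 1.48 under Miglustat, 0.00 under D-PDMP and -0.29 under D-PPMP. The Miglustat array thus stood above Control by 0.37 and the D-PDMP and D-PPMP arrays below it, at -1.11 and -1.40. The lower values were 2.16-fold and 2.64-fold below Control, at ranks 18 of 14154 and 7 of 14200 from the lowest, while Miglustat was at rank 646 from the highest. Each step in the order of levels exceeded the error. With normexp the D-PDMP ratio was -0.95, which ends the 2-fold call, and the D-PPMP ratio was -1.14.

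**Figure D3:**
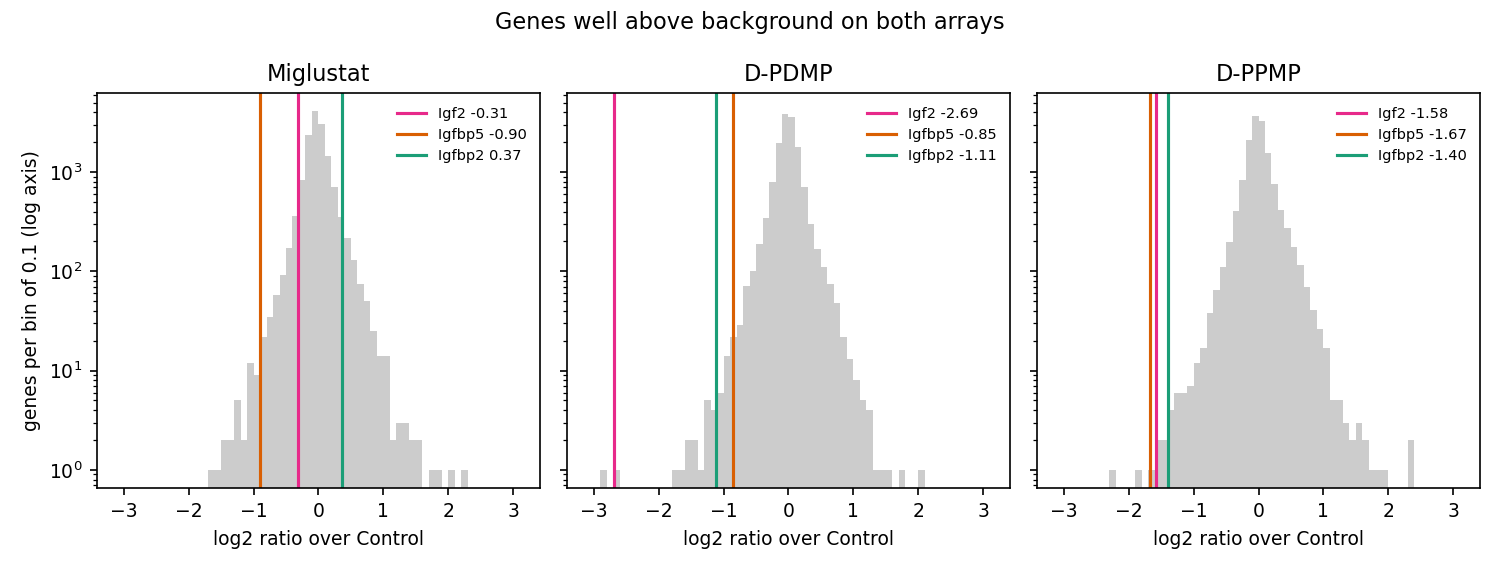
Histogram of the log2 ratio over Control for all genes well above background on both arrays, 1 panel per inhibitor, with the number of genes per bin on a log axis and vertical lines at Igf2, Igfbp5 and Igfbp2. In the D-PPMP panel all 3 lines sit in the lower tail, at -1.58, -1.67 and -1.40; in the Miglustat panel Igfbp2 sits at 0.37 and Igf2 at -0.31.

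Igfbp4, a binding protein that restrains IGF action and is the main substrate of PAPP-A, was lowest with Miglustat. Its level was 2.02 in Control, 1.41 under Miglustat, 1.85 under D-PDMP and 1.75 under D-PPMP. The ratios were -0.61, -0.17 and -0.27, and those of its other probe -0.56, -0.21 and -0.33. The difference from Control was 1.53-fold with Miglustat, whereas Control and D-PDMP differed by less than the error. Igfbp6, whose protein prefers IGF2, was also lowest with Miglustat, with levels of 4.87, 4.46, 4.67 and 4.77 and ratios of -0.41, -0.20 and -0.10. The sign of its D-PPMP ratio turned with normexp, to 0.01.

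Igfbp3, the main carrier of IGF1 in blood, and Igfbp7, a related protein that binds IGFs weakly, stayed close to Control. Igfbp3 was dim, with levels of -1.57, -1.44, -1.48 and -1.50, and Igfbp7 was bright, with levels of 6.95, 7.02, 7.0 and 6.99. Their ratios were 0.13, 0.09 and 0.07 for Igfbp3 and 0.08, 0.06 and 0.05 for Igfbp7, all within the error. The sign for Igfbp3 with D-PPMP turned in 2 of 8 alternatives. Igfbp1, Igfbpl1 and Igfals, which complete the family list, were well above background on no array.

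Pappa, the gene of the protease PAPP-A, was at levels of 2.17 in Control, 2.58 under Miglustat, 2.40 under D-PDMP and 1.62 under D-PPMP. Miglustat lay 0.41 above Control (rank 512 from the highest), D-PDMP 0.23 above, and D-PPMP at -0.55, which is 1.46-fold lower. D-PDMP and Miglustat differed by less than the error, and the D-PPMP level was below the other 3 by more than it. The related protease gene Pappa2, which is no member, lay at 0.44, -0.69 and -0.74, with its other probe at 0.70, -0.71 and -0.76.

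Around these genes, a list of binding protein proteases and their inhibitors had 8 of 10 genes measured, that is well above background on both arrays, and none was 2-fold from Control. The 8 include the member Pappa. With Miglustat 6 of the 8 lay above Control and the median was 0.40, beside -0.02 over all measured genes. With D-PDMP 4 lay above and with D-PPMP 2, with medians of -0.01 and -0.12. Over all measured genes, 6313 of 14171 lay above Control with Miglustat, 7025 of 14154 with D-PDMP and 6888 of 14200 with D-PPMP. Adamts1, a metalloprotease gene, lay at 0.74, -0.10 and -0.36. Stc1 and Stc2, whose products inhibit PAPP-A, had no measured ratio, since Stc1 was not well above background on any array and Stc2 on the Miglustat array alone.

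Downstream of the receptor, levels lay near Control. All 29 genes of the PI3K, AKT and mTOR list were measured and none was 2-fold from Control, with medians of -0.07, 0.02 and -0.01. The largest ratios in that list were those of Pik3r2, a regulatory subunit of PI3-kinase, at -0.41, -0.10 and -0.10, and of Foxo1, a transcription factor that AKT keeps out of the nucleus, at -0.38, 0.02 and 0.09. Of 13 receptor substrates and adaptors 12 were measured, again with none at 2-fold and medians of 0.00, -0.03 and -0.05. Among these Irs1, the main docking protein of the receptor, lay at 0.55, -0.17 and -0.38, and Grb14, an adaptor that inhibits the insulin receptor, at 0.13, -0.41 and -0.61.

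Genes that FOXO factors induce showed no call either. Of 18 such genes 16 were measured, with medians of 0.02, 0.06 and 0.04, where the Miglustat median was -0.04 with no filter on dim probes and -0.01 with the mean of each gene's probes. Pdk4, a kinase that shuts off pyruvate oxidation, lay at 0.27, 0.41 and 0.58. Pik3ip1, an inhibitor of PI3-kinase, lay at -0.15, -0.47 and -0.66 on its brighter probe and at 0.12, 0.20 and -0.14 on the other. The 8 measured genes of the growth hormone axis had medians of 0.04, -0.02 and 0.08, with the feedback inhibitor genes Socs3 at -0.34, 0.03 and 0.05 and Socs2 at 0.24, -0.20 and -0.12. Of the IGF2 mRNA binding proteins, Igf2bp2 lay at -0.07, 0.33 and 0.35 and Igf2bp1 at -0.11, -0.13 and -0.16.

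**Figure D4:**
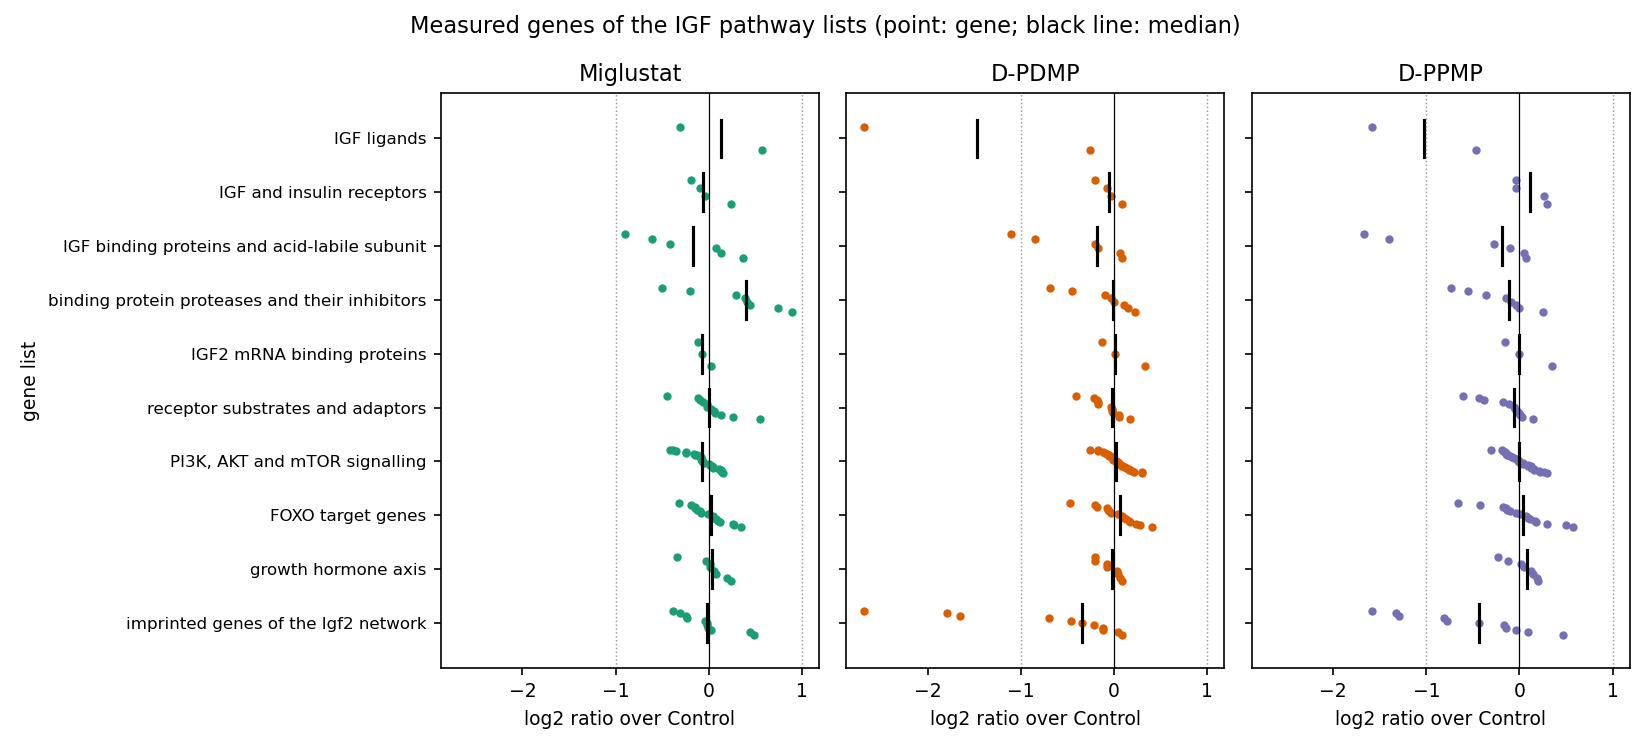
Log2 ratio over Control of each measured gene in 10 lists of the IGF pathway, 1 panel per inhibitor, with the list median as a black line and dotted lines at 2-fold. The 29 PI3K, AKT and mTOR genes lie between -0.41 and 0.30 in all 3 panels, while points beyond the lower dotted line occur among the ligands, the binding proteins and the imprinted genes.

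The imprinted genes studied as a network around Igf2 were the list outside the members with 2-fold differences. Of 16 genes 11 were measured, Igf2 among them. On the D-PDMP array and on the D-PPMP array 3 were 2-fold lower (Igf2, H19 and Dcn) and 9 lay below Control, with medians of -0.34 and -0.44; with Miglustat none was 2-fold lower, 8 lay below and the median was -0.02. Over all measured genes, 0.17% and 0.204% were 2-fold lower with D-PDMP and D-PPMP, and the shares below Control were 55.5% under Miglustat, 50.4% under D-PDMP and 51.5% under D-PPMP. The list holds Igf2 itself. H19, the maternally expressed noncoding RNA that shares enhancers with Igf2, lay at -0.24, -1.79 and -1.29. It was dim, with levels of -3.18, -3.42, -4.97 and -4.47, and with normexp its ratios were -0.38 and -0.30 with D-PDMP and D-PPMP. Dcn, the collagen-binding proteoglycan decorin, was bright and lay at -0.38, -1.66 and -1.33. The D-PDMP median was -0.13 with no filter on dim probes, and the D-PPMP median was -0.19 with the mean of each gene's probes.

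On the chromosome, H19 is next to Igf2, and Igfbp2 and Igfbp5 are next to each other, in the gene order of the GRCm38.p6 table without predicted and unnamed genes. These neighbours were looked up after the ratios had been seen. Beyond H19, Nctc1 lay at 0.12, -0.09 and 0.58 and Mrpl23, a mitochondrial ribosomal protein gene, at -0.06, -0.01 and -0.03. On the other side of Igf2, its antisense transcript Igf2os lay at 0.43, 0.31 and 0.30, in the direction opposite to Igf2, and Th, tyrosine hydroxylase, at 0.15, 0.17 and 0.25. Flanking the pair of binding protein genes, Rpl37a, a ribosomal protein gene, lay at -0.04, -0.07 and -0.13 and Tnp1, a sperm chromatin protein gene, at 0.35, 0.05 and 0.01.

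**Figure D5:**
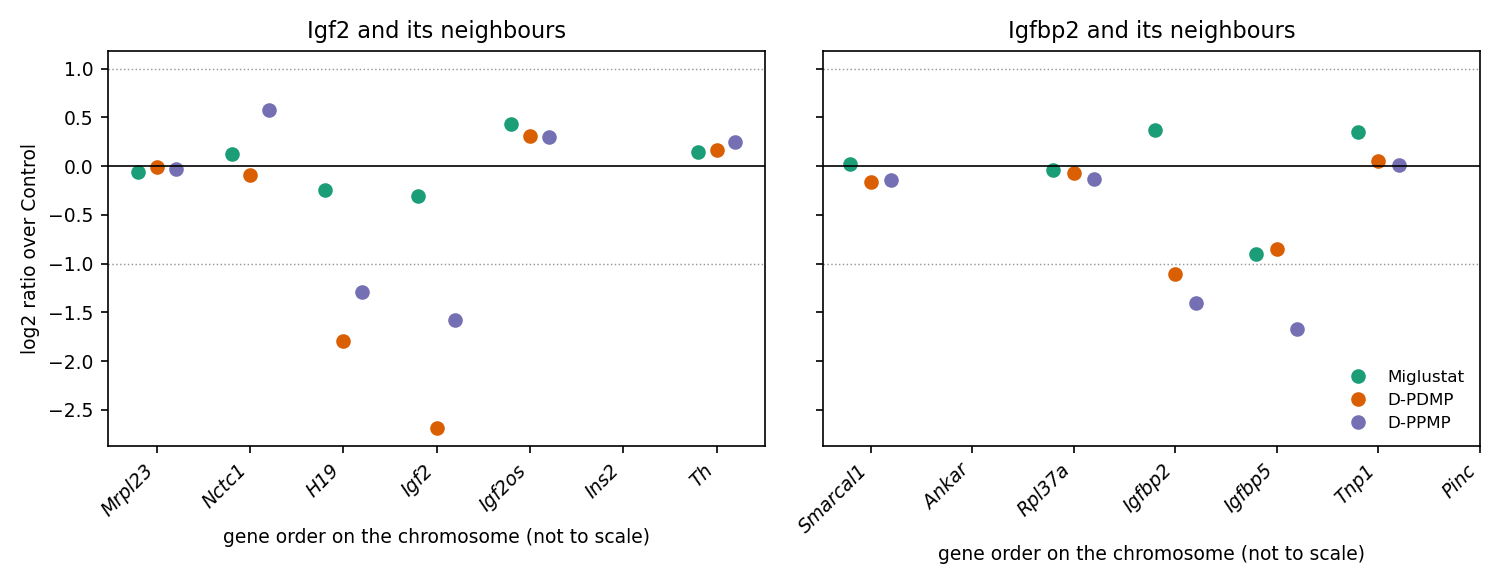
Log2 ratio over Control for Igf2 and for Igfbp2 with the 3 nearest named genes on each side, in chromosomal order and not to scale; a gene has no point where it was not well above background on both arrays or had no probe, and dotted lines mark 2-fold. Among the D-PDMP points alone, H19 (-1.79) and Igf2 (-2.69) lie lowest in their panel, as do Igfbp2 (-1.11) and Igfbp5 (-0.85) in theirs. With Miglustat, Igfbp2 (0.37) and Igfbp5 (-0.9) lie on opposite sides of Control.

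The genes nearest to a member in their 3 ratios were sought by Euclidean distance among 13037 named genes well above background on all 4 arrays. For Igfbp2 they were Npnt, the integrin ligand nephronectin, Rtl3, Samd5, Plxnc1 and the matricellular Ccn3, at distances of 0.34 to 0.57 log2 units. Npnt lay at 0.63, -1.23 and -1.21, and Ccn3 at 0.72, -0.93 and -0.99. For Igfbp5 they were Cox6a2, Car6, Morn5, Cdsn and Cth, at distances of 0.56 to 0.75. Cox6a2, a subunit of cytochrome c oxidase, lay at -1.22, -0.71 and -1.24, and Cth, which makes cysteine, at -0.82, -0.65 and -0.95. Igf2 was added to this search after its values had been seen, and its nearest genes were Lum, H19, Dcn, Fndc1 and Zfp185, at distances of 0.76 to 1.47. The probes of Fndc1 disagree, its other probe above background on all arrays lying at -0.14, -0.22 and -0.48 beside -0.61, -1.53 and -1.35. Lum, the proteoglycan lumican, lay at 0.10, -2.87 and -2.20. Igfbp2 ranked 10 and Igfbp5 ranked 18 in nearness to Igf2. Seen from the other side, Igf2 ranked 3565 in nearness to Igfbp2 and 3002 in nearness to Igfbp5, so the low ranks do not show a shared pattern. These distances rest on 4 arrays, and all ratios share the Control array.

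As to the cells, 6 of 12 osteoblast markers were well above background on all arrays, among them Runx2, Sp7 and Col1a1. Alpl, Ibsp, Dmp1 and Sost were not well above background on any. The summed linear level of the osteoblast markers, as a multiple of the 75th percentile, ranged from 1220 to 1440. Most of this sum came from the matrix genes Col1a1, Col1a2 and Sparc, at Control levels of 8.14, 9.12 and 9.12. Runx2 and Sp7 were at -0.05 and -3.35 in Control and added little. The sums ranged from 0.505 to 0.576 for 7 adipocyte markers, from 53.9 to 88.5 for 6 chondrocyte markers, from 0.0577 to 0.0953 for 5 skeletal muscle markers (none well above background on all 4 arrays) and from 13.5 to 16.9 for 6 macrophage and osteoclast markers. For 4 endothelial markers the sum was 0.0925 in Control, 0.107 under Miglustat, 0.13 under D-PDMP and 0.131 under D-PPMP. Of the macrophage and osteoclast, endothelial and skeletal muscle markers, Ptprc, Adgre1, Cdh5, Kdr, Tek, Myod1, Myog and Ckm were well above background on no array. Others in those lists were present: Cd68, Csf1r and Ctsk on all 4 arrays, Acp5 and Des on 3 and Myh3 on 2. In the adipocyte list, Pparg, Cebpa and Fabp4 were well above background on all 4 arrays and Adipoq on the D-PPMP array alone. Pecam1 was also well above background on all 4 and lay at 0.60 with D-PDMP and 0.61 with D-PPMP. The chondrocyte sum was highest with Miglustat and lowest with D-PPMP. It came mostly from Col2a1, at levels of 6.05 in Control, 6.43 under Miglustat, 5.77 under D-PDMP and 5.7 under D-PPMP. Sox9 and Comp were dimmer, and Acan, Col10a1 and Matn1 were well above background on no array. The part of these cell type markers in the IGF results was not tested. In such bulk samples fewer cells of a type and less RNA per cell cannot be told apart. The arrays stood on 1 slide in the order of the groups, so array position and group cannot be told apart.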

How the data were processed

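The deposited scanner files hold spot intensities made by the authors with Agilent Feature Extraction 12.1.1.1, per the file headers. The processed signal used is an intensity corrected for background on each array alone, per the file headers. The authors' deposited table holds log2 values. Set against the scanner files, 100% of its probes lay within 0.02 of the scaling used here once signals under 1 were set to 1. That settles its scale and direction. Its column medians were -4.1, -4, -4 and -3.89.

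Control spots and 66 to 85 outlier spots per array were left out, log2 signals were averaged per probe, and the 75th percentile over 56605 probes (signals of 183 to 191) was subtracted. No spot was saturated, and 57.4% to 62.4% of probes were well above background. Accessions without version matched 32994 probes to 22911 genes of the GRCm38.p6 RefSeq table, used for names and gene order; the array design names mm9. A gene takes its brightest probe. A difference is called at 2-fold between arrays on both of which the gene is well above background; there is no replicate, so no test was made. The calling code was checked on simulated ratios set well away from the 2-fold limit, which says nothing about calls near it. The alternatives used limma 3.58.1 in R 4.3.3. Python 3.11.15 did the rest.

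The members, the 16 gene lists (10 of the pathway, 6 of cell types) and the alternatives were chosen with earlier results of these data known. Named are the members, all ligand, receptor and binding protein genes of the lists, of each other pathway list the genes 2-fold from Control (at most 4) or else the 2 most distant, and the 5 genes nearest to Igfbp2 and to Igfbp5. Others named were chosen after their values were seen. The ratios of 1 gene that the rule names are not reported here.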

Additional observations from a re-analysis of the deposited data

How the results depend on the processing

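The member counts and ratios, the pathway list medians and the counts over all measured genes were recomputed under 8 alternatives. So were the ratios of H19, Dcn, Mest, Plagl1 and Pappa2. The ratios of other genes, the nearest-gene distances and the marker sums were not recomputed. Normexp on the mean spot signal was not run, because the scanner files used here hold the median; normexp on the spot median was added after seeing the data. The counts of members 2-fold higher or lower stayed within 1.5-fold in 47 of 48 recomputations. The exception was D-PDMP with normexp, where 0 members were 2-fold lower in place of 2. With D-PPMP the normexp count also fell, to 2 in place of 3, which is still within 1.5-fold. Counts of higher members, and of lower members with Miglustat, were 0 in every setting. Most of the 48 therefore compare 0 with 0. Of 240 member ratios 236 moved by less than the scanner software's error. The other 4, all with normexp, were Igf2 at -0.93 with D-PDMP and -0.65 with D-PPMP, and Igfbp2 at -1.14 and Igfbp5 at -1.41 with D-PPMP. The 236 say little about robustness, because several alternatives could hardly change a member. Altering the filter left every member ratio as it was, since all 10 members pass it. The authors' values match the scaling used here to within 0.02, and averaging probes affected only Igfbp4 and Igf1r. Normexp alone changed the background correction, and it moved all 3 member ratios called with D-PPMP. No called value turned its sign. Ratios within the error of 0 turned for Igfbp3 with D-PPMP in 2 alternatives and for Igfbp6 with D-PPMP in 1. Over all measured genes, those 2-fold higher and lower with Miglustat, D-PDMP and D-PPMP numbered 30 and 25, 22 and 24, and 43 and 29. They were 20 and 26, 14 and 36, and 22 and 56 under quantile normalization, 21 and 28, 14 and 38, and 21 and 48 under cyclic loess, 5 and 4, 4 and 2, and 6 and 8 with normexp, and 959 and 553, 1250 and 506, and 1621 and 364 with no filter on dim probes. The dim signal of Igf2 and H19 leaves the size of their ratios uncertain, and with normexp these ratios were smaller. No paired analysis was possible because each group has 1 array.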

Other observations

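Some genes around the IGF system that were picked after their values were seen stood on different sides of Control on the Miglustat array and on the D-PDMP and D-PPMP arrays. Mest, an imprinted gene of mesoderm expressed from the paternal allele, had levels of 1.11 in Control, 1.55 under Miglustat, 0.41 under D-PDMP and 0.30 under D-PPMP. Its ratios were 0.44, -0.70 and -0.81, and those of its other probe 0.46, -0.80 and -0.62. Plagl1, an imprinted zinc finger gene, lay at 0.49, -0.46 and -0.78 on its brighter probe, but its other probe, well above background on all arrays, lay at -0.24, 0.05 and 0.40. Pappa2 was bright, with levels of 6.43, 6.88, 5.74 and 5.69 on Control, Miglustat, D-PDMP and D-PPMP. Whether these differences exceed those between cultures was not tested, since each group has 1 array.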
